A study of Mus musculus with 6 samples.

Results

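DEAD and DEAH box RNA helicases were compared between *Uba6*-null and control 4T1 cells. They were taken as the protein-coding genes of the deposited table whose symbols begin with *Ddx* or *Dhx* and a number, without the RNA sensor genes *Ddx58* and *Dhx58*. This gave 47 genes (32 *Ddx* and 15 *Dhx*) of 19255 in the table, by a rule on names that uses no expression value, although the set was proposed with earlier results of these data known. *Ddx3y*, *Ddx4*, *Ddx25* and *Ddx43* were not analysed here. The gene named *Ddx39* in the table is *Ddx39a* in RefSeq.

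4T1 is a mouse mammary carcinoma cell line of Balb/c origin. RNA-seq was performed on 3 libraries of *Uba6*-null cells (sgUba6) and 3 libraries of control cells (sgCtrl). *Uba6*, the gene of an E1 enzyme for ubiquitin and for the ubiquitin-like protein FAT10, had been deleted in Cas9-expressing cells with lentiviral single guide RNAs. The submitters' treatment note gives the same *Uba6* guide RNA and Cas9 vector for both groups, so what guide the control cells carried is unclear from it, and the groups were taken from the titles and genotypes, knockout or wild type. The study states in general terms that its results were repeated biologically, but not whether these libraries came from separate cultures or clones, so each p-value reflects only how these libraries vary, which may be technical.

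DEAD and DEAH box proteins are ATP-dependent enzymes that bind RNA and open short duplexes or strip proteins from RNA. They are named after the amino acid letters of a conserved motif in the ATP-binding core. DEAD box proteins mostly act locally on short helices, whereas DEAH box proteins move along a strand, and between them they drive splicing, ribosome assembly, nuclear export, translation and decay of RNA. Most are expressed in every dividing cell, and a few, such as *Ddx60*, are induced by interferon.

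The targeted gene was checked first. *Uba6* had 10.9, 12.1 and 12.0 FPKM (fragments per kilobase of exon, scaled to the mapped fragments of the library) in sgUba6 libraries, against 16.4, 16.4 and 17.0 FPKM in sgCtrl libraries, a log2 fold change of −0.49 (adjusted p = 0.000601, limma). The groups did not overlap, but a large part of the transcript remained, which by itself says nothing of the protein. In bulk libraries such as these, a lower level in every cell and a loss from some of the cells cannot be told apart. The study checked the knockout at the protein level by western blot and chose *Uba6*-null cells for its experiments. The epithelial markers *Epcam*, *Krt8*, *Krt18* and *Cdh1* had at least 104 FPKM in every library, whereas the leukocyte marker *Ptprc* and the endothelial marker *Pecam1* had at most 0.0195 and 0.214 FPKM. Libraries correlated at 0.991 to 0.992 within a group and at 0.961 to 0.963 between groups (Pearson, log2 values over the genes tested). Depth is not given in the table. The product of FPKM and exon length that occurred most often among low values, which falls as depth rises, was 0.055 to 0.059 in sgUba6 libraries and 0.055 to 0.067 in sgCtrl libraries, so it did not separate the groups.

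More of the helicase genes fell than rose in *Uba6*-null cells. Of the 47 genes, all of which passed the filter on low values, 20 (42.6%) were lower and 8 (17.0%) were higher at an adjusted p under 0.05 (limma on log2(FPKM + 0.5), adjusted over 12190 genes), and 19 did not pass. Among all genes tested 22.7% were lower and 24.7% were higher, and among protein-coding genes 23.9% were lower and 25.8% were higher. The helicase genes had a higher median level, 26.95 FPKM, against 10.96 FPKM for all genes tested and 12.39 FPKM for protein-coding genes. The part of level in these shares was not tested. The median log2 fold change of the 47 genes was −0.08, against 0.01 for all genes tested. The estimate was below 0 for 34 genes and above 0 for 13. The *Ddx* genes had 14 lower and 5 higher of 32, and the *Dhx* genes had 6 lower and 3 higher of 15. These counts fell when any 1 library was left out. The smallest were 13 lower without sgCtrl replicate 1 and 5 higher without sgUba6 replicate 2 or without sgUba6 replicate 3. Counts over all genes tested fell too, to 2355 lower without sgCtrl replicate 1, against 2769. They fell to 2380 and 2264 higher without sgUba6 replicate 2 or 3, against 3014. Under every alternative tried, 13 of the 20 lower helicase genes and 5 of the 8 higher ones kept their call.

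Separation of the libraries showed the same lean. All 3 sgUba6 libraries lay below all 3 sgCtrl libraries for 22 of the 47 genes and above them for 11, whereas 14 genes overlapped. Among all genes tested, 27.7% lay below and 29.9% above. Most changes were small. A change of at least 0.5 on the log2 scale with an adjusted p under 0.05 was found for 5 lower helicase genes (*Dhx36*, *Ddx39*, *Ddx20*, *Ddx3x* and *Dhx9*) and for 1 higher gene (*Ddx60*), while 7.49% of all genes tested were lower and 10.8% higher by that rule. The plot of changes by role shows the 5 at the top of their groups and *Ddx60* apart from every other gene.

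**Figure D1:**
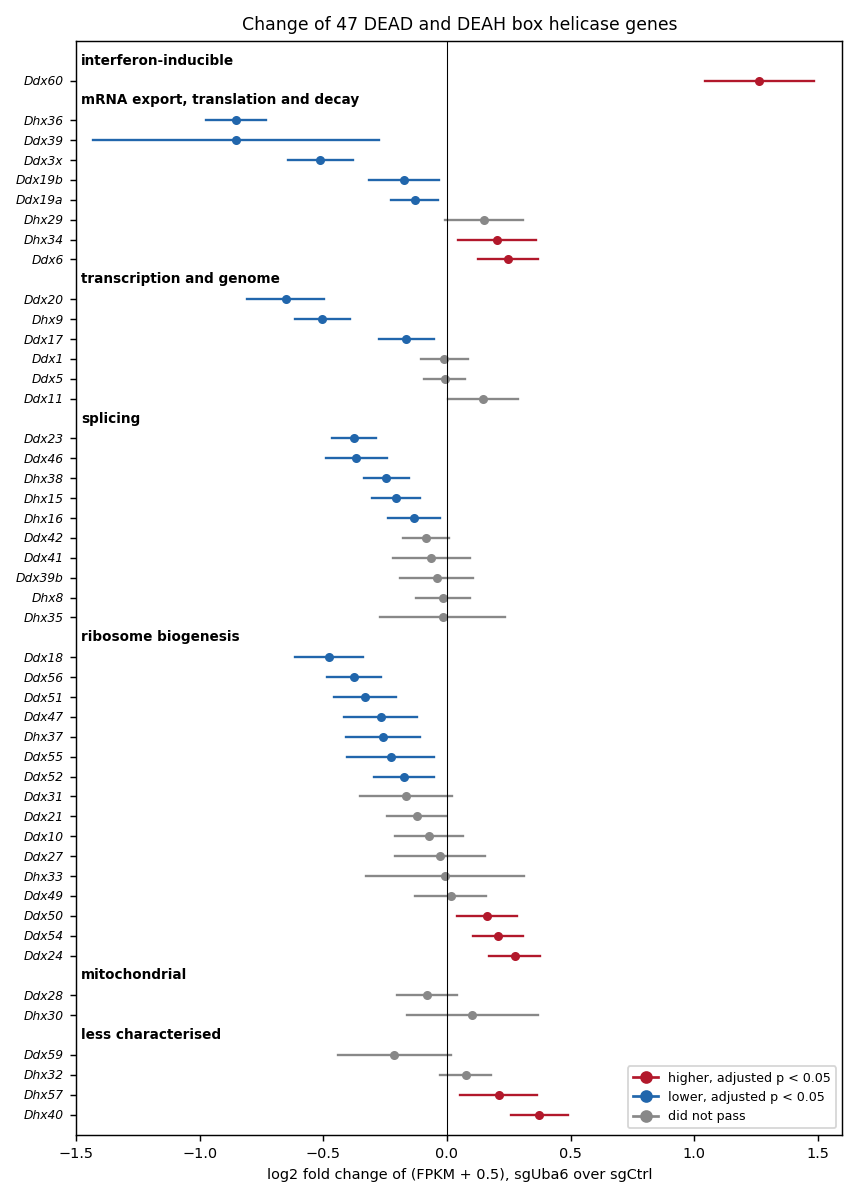
Log2 fold change of (FPKM + 0.5), sgUba6 over sgCtrl (x axis), for the 47 helicase genes (y axis, by role). Points are estimates from 3 libraries a group and lines are 95% confidence intervals from limma, not adjusted for the number of genes. *Ddx60* stands at 1.26, *Dhx36* and *Ddx39* near −0.85, and the 10 splicing genes lie below 0, 2 of which (*Ddx39b* and *Dhx35*) were above 0 under some alternatives.

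*Ddx60*, an interferon-inducible gene whose product takes part in antiviral RNA sensing, had the largest change of the 47 genes and was the least expressed of them. It lies on chromosome 8 (61928087 to 62038244, plus strand, GRCm38). Its level was 4.21, 4.39 and 4.54 FPKM in sgUba6 libraries, against 1.76, 1.43 and 1.42 FPKM in sgCtrl libraries. Every sgUba6 library was above every sgCtrl library, and the ratio of the means was 2.85. The log2 fold change was 1.26 with a standard error of 0.09 (adjusted p = 8.2e-05, limma). It depends on the constant added to such low values and was 1.46 with 0.1 FPKM and 1.09 with 1 FPKM.

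Interferon acts on its target genes through the interferon-stimulated response element, whose core is a pair of GAAA runs set 2 bases apart, written GAAANNGAAA. This core was searched on both strands in the RefSeq promoters (GRCm38.p6, 250 bases before to 50 bases after each start). Promoters were matched by gene symbol, which found 42 of the 47 helicase genes. A gene with another symbol in RefSeq, such as *Ddx39*, would be missed by this match. *Ddx60* held it at 2 places and *Ddx49*, a ribosome biogenesis gene, at 1 place from each of its annotated starts. These were 2 of the 42 helicase promoters (4.76%), whereas 3.99% of the 27025 genes with a promoter held the core and 0.266% held it at 2 or more places. The stretches are given with the core in capitals, to set the gene that rose beside the one that carries the letters with no called change.
Ddx60, chr8:61928014-61928086, plus strand: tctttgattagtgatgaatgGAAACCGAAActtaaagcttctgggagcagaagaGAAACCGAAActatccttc
Ddx49, chr8:70302669-70302718, minus strand: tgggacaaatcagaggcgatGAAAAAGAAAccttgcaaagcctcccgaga

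In the *Ddx60* promoter both cores had the same letters and lay 53 to 44 and 19 to 10 bases before the start. *Ddx49* had 23.9, 23.1 and 24.0 FPKM in sgUba6 libraries, against 21.5, 24.2 and 24.6 FPKM in sgCtrl libraries, and the groups overlapped. A match of letters is not a measured binding site. The E-box CACGTG, the site of MYC and related factors, was in 5 of the 42 helicase promoters (11.9%: *Ddx5*, *Ddx42*, *Dhx33*, *Dhx35* and *Dhx40*) and in 8.09% of all genes with a promoter. Of these 5 genes *Dhx40* was higher and the others did not pass the test.

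Of 8 genes of mRNA export, translation and decay, 5 (62.5%) were lower, 2 (25%) were higher and *Dhx29* did not pass, where 22.7% of all genes tested were lower and 24.7% higher. *Dhx36*, which unwinds G-quadruplexes in RNA and DNA, had the lowest p of the 47 genes. It lies on chromosome 3 (62468013 to 62507004, minus strand). Its level was 12.1, 12.6 and 12.1 FPKM in sgUba6 libraries, against 22.3, 21.8 and 23.6 FPKM in sgCtrl libraries. The sgUba6 libraries were close to each other and well below the controls, and the mean fell by 45.7% (log2 fold change −0.85, SE 0.05, adjusted p = 3.4e-05, limma).

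*Ddx3x*, which promotes translation of mRNAs with structured leaders, lies on chromosome X (13280970 to 13294052, plus strand). It had 74.4, 84.5 and 74.8 FPKM in sgUba6 libraries, against 110.3, 110.0 and 112.9 FPKM in sgCtrl libraries. The groups were well separated, with sgUba6 replicate 2 nearest to the controls, and the log2 fold change was −0.51 (SE 0.06, adjusted p = 0.000399, limma). *Ddx6*, which holds mRNAs in a repressed state and promotes decapping, moved the other way. It had 60.3, 65.2 and 57.8 FPKM in sgUba6 libraries, against 50.6, 52.1 and 51.4 FPKM in sgCtrl libraries (log2 fold change 0.25, adjusted p = 0.00674, limma).

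*Ddx39*, an mRNA export factor and close relative of *Ddx39b*, had a change as large as that of *Dhx36* but a far wider spread. It lies on chromosome 8 (83715177 to 83726892, plus strand). Its level was 47.3, 85.5 and 50.7 FPKM in sgUba6 libraries, against 117.0, 84.8 and 123.6 FPKM in sgCtrl libraries. The groups overlapped, because replicate 2 of sgUba6 and replicate 2 of sgCtrl were at nearly one level. The log2 fold change was −0.85 with a standard error of 0.24 (adjusted p = 0.0255, limma). The call was lost without sgUba6 replicate 1 or 3 and without sgCtrl replicate 1 or 3 (adjusted p = 0.0736 to 0.0796). Its residual standard deviation of 0.39 on the log2 scale was at the 98.1 percentile of the 6454 genes that averaged 10 FPKM or more.

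*Ddx39* also shares 895 exonic bases, 17.4% of its exons, with *Adgre5* on the opposite strand. *Adgre5*, an adhesion receptor gene, had 4.02, 3.16 and 3.82 FPKM in sgUba6 libraries, against 0.630, 0.440 and 0.366 FPKM in sgCtrl libraries, so the overlapping gene was higher where *Ddx39* was lower. The sources name different library kits, a directional kit and a TruSeq kit, and whether the strand was used in counting is unclear. The part of this overlap in the *Ddx39* values was not tested.

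The remaining changes in export, translation and decay were at most 0.20 in size on the log2 scale. *Dhx34*, which acts in nonsense-mediated decay, was higher by 0.20, while *Ddx19b* and *Ddx19a*, which release mRNA at the nuclear pore, fell by 0.17 and by 0.13. These calls rest on small margins, with adjusted p-values of 0.0411, 0.0492 and 0.0308 (limma). They were lost in at least 7 of 14 alternatives each, most of which left out a library. *Dhx29*, which helps ribosomes scan structured leaders, had a log2 fold change of 0.15 (adjusted p = 0.102, limma).

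**Figure D2:**
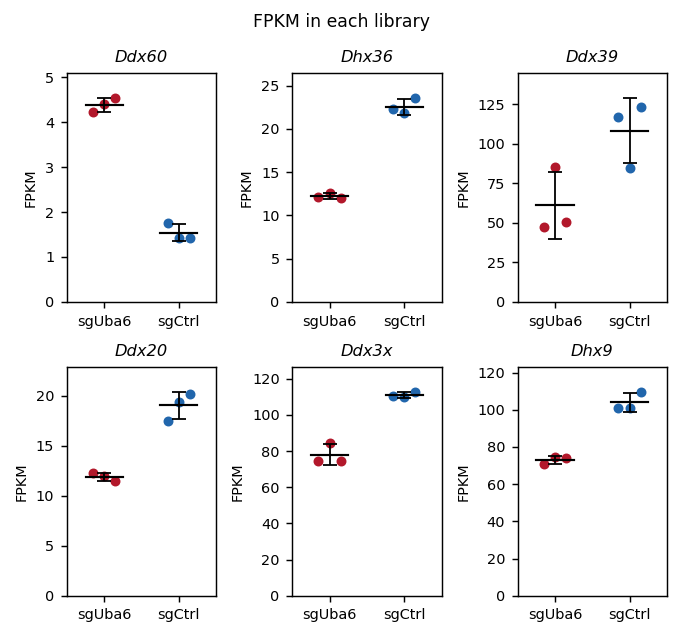
FPKM (y axis, from 0) in each library of sgUba6 and sgCtrl cells for the 6 helicase genes with an adjusted p under 0.05 and a log2 change of at least 0.5. Points are libraries, horizontal lines are means and bars are SD (n = 3 each). *Ddx39* is the one gene whose groups overlap, with 85.5 FPKM in 1 sgUba6 library and 84.8 FPKM in 1 sgCtrl library.

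Of 6 genes of transcription and genome maintenance, 3 (50%) were lower, where 22.7% of all genes tested were lower and 24.7% higher. None of the 6 was higher by the limma test (1 at an unadjusted p under 0.05). *Ddx20* encodes Gemin3, a part of the SMN complex that assembles spliceosomal ribonucleoproteins and a binding partner of transcription factors. It lies on chromosome 3 (105678270 to 105687574, minus strand). Its level was 12.3, 12.0 and 11.5 FPKM in sgUba6 libraries, against 17.5, 19.4 and 20.2 FPKM in sgCtrl libraries. The mean fell by 37.4%, with no overlap (log2 fold change −0.65, SE 0.07, adjusted p = 0.000306, limma).

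*Dhx9*, RNA helicase A, unwinds double-stranded RNA and RNA:DNA hybrids and bridges transcription factors to RNA polymerase II. It lies on chromosome 1 (153455758 to 153487660, minus strand). It had 70.7, 74.6 and 74.3 FPKM in sgUba6 libraries, against 101.1, 101.2 and 109.8 FPKM in sgCtrl libraries. The change was as large as that of *Ddx3x* and again without overlap (log2 fold change −0.50, SE 0.05, adjusted p = 0.000208, limma).

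*Ddx5* and *Ddx17* are close relatives that act as transcription coregulators and in splicing. *Ddx5*, the most abundant of the 47 transcripts per length, had 266.4, 255.9 and 267.0 FPKM in sgUba6 libraries, against 270.1, 256.6 and 267.3 FPKM in sgCtrl libraries. The groups overlapped, and the 95% interval of the log2 fold change ran from −0.09 to 0.08. *Ddx17* had 175.7, 180.0 and 186.6 FPKM in sgUba6 libraries, against 215.1, 195.2 and 197.8 FPKM in sgCtrl libraries (log2 fold change −0.16, adjusted p = 0.0267, limma). The groups did not overlap, but the call was lost without sgUba6 replicate 1 or 2 or sgCtrl replicate 1, and adjusted p reached 0.0898 over the alternatives. *Ddx1*, of the tRNA ligase complex, had a log2 fold change of −0.01, with an interval from −0.11 to 0.09, and *Ddx11*, a DNA helicase of sister chromatid cohesion, had 0.15 (adjusted p = 0.0851, limma).

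The genes counted as splicing helicases had small estimates. Each of the 10 genes was below 0 in the main comparison, though *Ddx39b* was above 0 with quantile normalisation or without sgUba6 replicate 3 (0.03 and 0.02), and *Dhx35* was above 0 without sgUba6 replicate 3 or sgCtrl replicate 3 (0.03 and 0.08). Of the 10, 5 (50%) were lower, where 22.7% of all genes tested were lower and 24.7% higher. None of the 10 was higher by the limma test (0 also at an unadjusted p under 0.05), and their median log2 fold change was −0.11. In the spliceosome these enzymes act in turn, each driving one rearrangement. *Ddx46* (yeast Prp5), which helps the U2 particle bind the branch site, and *Ddx23* (yeast Prp28), which frees the donor site from the U1 particle, act before the first catalytic step. *Ddx23* had 37.5, 36.2 and 36.8 FPKM in sgUba6 libraries, against 47.0, 47.5 and 49.2 FPKM in sgCtrl libraries. This was the largest change of the 10 genes counted as splicing, with a log2 fold change of −0.38 (SE 0.04, adjusted p = 0.000314, limma). *Ddx46* followed at −0.37.

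The DEAH box genes of this group had smaller changes than *Ddx23* and *Ddx46*, and so did its other DEAD box genes. *Dhx38* (yeast Prp16), which acts between the catalytic steps, fell by 0.25 on the log2 scale. *Dhx15* (yeast Prp43), which takes the spliceosome apart, had 101.3, 105.8 and 101.1 FPKM in sgUba6 libraries, against 116.7, 115.1 and 123.8 FPKM in sgCtrl libraries. The groups did not overlap (log2 fold change −0.20, adjusted p = 0.00614, limma). *Dhx16* (yeast Prp2), which activates the spliceosome for the first step, fell by 0.13 (adjusted p = 0.0449, limma), and this call was lost in 9 of 14 alternatives. *Dhx8* (yeast Prp22), which releases spliced mRNA, had 12.6, 12.8 and 12.7 FPKM in sgUba6 libraries, against 13.1, 12.7 and 12.7 FPKM in sgCtrl libraries, with an interval of the log2 fold change from −0.13 to 0.09. *Ddx41*, *Ddx42*, *Ddx39b* and *Dhx35* did not pass either, with estimates between −0.08 and −0.02. *Ddx39b* was counted here, while its close relative *Ddx39* was counted with mRNA export, translation and decay. *Ddx20*, of the complex that assembles spliceosomal ribonucleoproteins, and *Ddx5* and *Ddx17*, which also act in splicing, were counted with transcription and genome maintenance. The change of *Ddx20* (log2 fold change −0.65) was larger than that of any gene counted here. The counts of these groups depend on such choices.

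The ribosome biogenesis helicases were the largest group. Of 16 genes, 7 (43.8%) were lower, 3 (18.8%) were higher and 6 did not pass, where 22.7% of all genes tested were lower and 24.7% higher, with a median log2 fold change of −0.14. *Ddx18* (yeast Has1), which acts on precursors of both subunits, had the largest change. It had 33.8, 36.4 and 32.5 FPKM in sgUba6 libraries, against 45.40, 48.06 and 50.01 FPKM in sgCtrl libraries. The groups were apart, with a log2 fold change of −0.48 (SE 0.06, adjusted p = 0.000705, limma). A processed pseudogene, *Gm16433*, matches 1984 bases of the *Ddx18* transcript at 99.3% identity. It was listed at no more than 0.116 FPKM in any library, so how the counting split such reads is uncertain.

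The other lower genes of this group were *Ddx56*, *Ddx51* and *Ddx55*, whose yeast counterparts serve the large subunit, and *Ddx47*, *Dhx37* and *Ddx52*, whose yeast counterparts serve the small subunit. Their log2 fold changes were −0.37, −0.33 and −0.23, and −0.27, −0.26 and −0.17. *Ddx24* and *Ddx54*, with yeast counterparts of the large subunit, and *Ddx50*, a nucleolar relative of *Ddx21*, were higher by 0.27, 0.21 and 0.16. *Ddx24* had 42.8, 42.3 and 45.2 FPKM in sgUba6 libraries, against 35.2, 35.5 and 36.8 FPKM in sgCtrl libraries, without overlap. The calls of *Ddx52*, *Ddx55* and *Ddx50* were each lost without several of the libraries (highest adjusted p over the alternatives 0.0841, 0.116 and 0.104). *Ddx21*, *Ddx10*, *Ddx27*, *Ddx31*, *Ddx49* and *Dhx33* did not pass, with estimates between −0.17 and 0.02. *Ddx49* shares 874 exonic bases with *Homer3* on the opposite strand and *Ddx54* shares 869 with the antisense gene *Gm43579*, so their levels are uncertain where the strand was not used.

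Neither of the mitochondrial helicases passed the limma test, also not at an unadjusted p under 0.05. *Dhx30*, which acts in mitochondrial RNA granules and ribosome assembly, had 29.9, 36.8 and 36.5 FPKM in sgUba6 libraries, against 27.7, 33.8 and 34.5 FPKM in sgCtrl libraries. Replicate 1 was the lowest in both groups, the groups overlapped, and the interval of the log2 fold change ran from −0.16 to 0.37. *Ddx28*, of the same granules, had a log2 fold change of −0.08.

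Among 4 less characterised genes, 2 (50%) were higher, where 24.7% of all genes tested were higher and 22.7% lower. None of the 4 was lower by the limma test (0 also at an unadjusted p under 0.05). *Dhx40*, whose function is little known, had 24.2, 23.6 and 24.6 FPKM in sgUba6 libraries, against 18.5, 17.8 and 19.3 FPKM in sgCtrl libraries. It was the second largest rise of the 47 genes, with no overlap (log2 fold change 0.37, SE 0.05, adjusted p = 0.000883, limma). *Dhx57* was higher by 0.21, a call lost without sgUba6 replicate 2 or 3 and without sgCtrl replicate 1 or 3 (highest adjusted p 0.0947). *Dhx32* and *Ddx59* had log2 fold changes of 0.08 and −0.21. *Ddx59*, a gene linked to cilia and palate development in human, was the more variable, with 4.41, 5.66 and 4.65 FPKM in sgUba6 libraries, against 5.79, 5.87 and 5.54 FPKM in sgCtrl libraries. Without sgUba6 replicate 2 it was called lower (log2 fold change −0.31, adjusted p = 0.0218, limma).

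Levels of the 47 genes covered a wide range per length. Mean FPKM over the 6 libraries ran from 2.96 for *Ddx60* to 263.9 for *Ddx5*, with a median of 26.9. *Ddx5* and *Ddx17* led in every library. *Dhx15* and *Ddx39b* followed, and their ranges overlapped. *Ddx3x* and *Dhx9*, next in the order, were close to *Dhx15* and *Ddx39b* in sgCtrl libraries and below them in every sgUba6 library, as the plot of levels shows. The summed FPKM of the 47 genes was 0.499%, 0.522% and 0.506% of all FPKM in sgUba6 libraries, against 0.563%, 0.538% and 0.574% in sgCtrl libraries. The sgUba6 libraries were lower without overlap, also when *Ddx39* was left out (0.485% to 0.498% in sgUba6 libraries, against 0.514% to 0.540% in sgCtrl libraries).

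**Figure D3:**
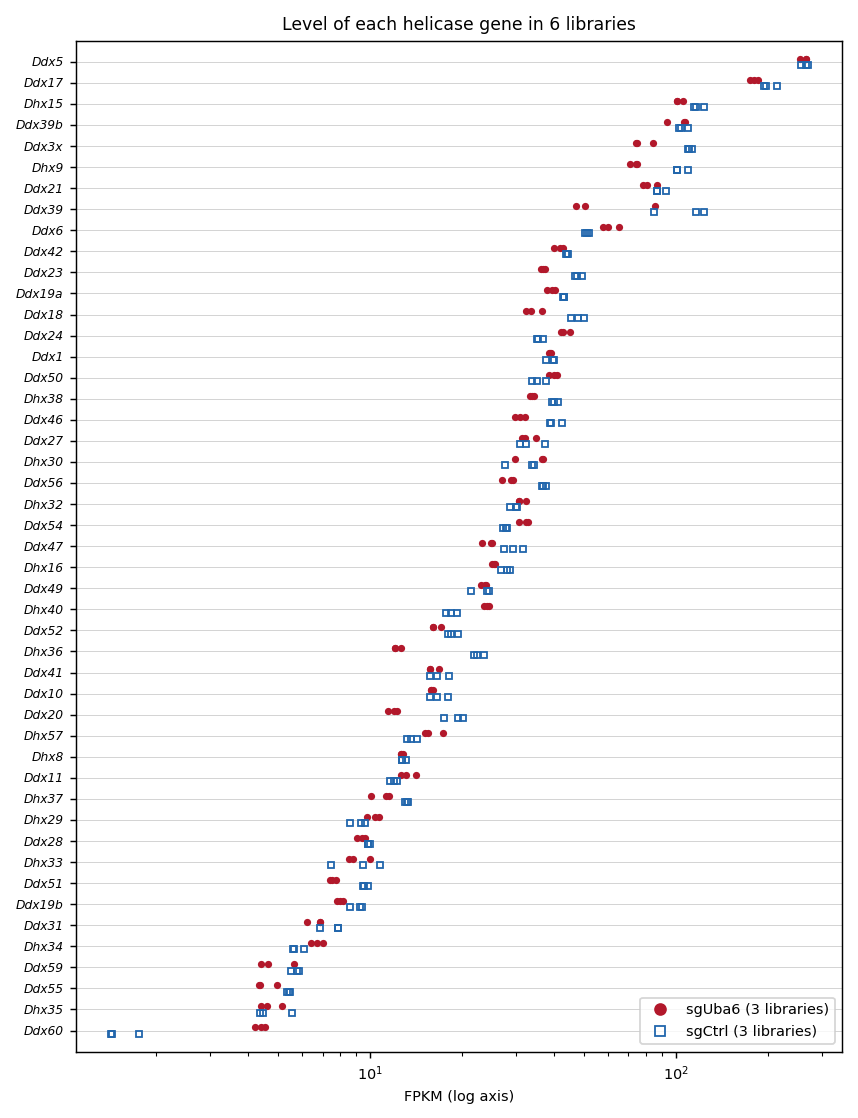
FPKM (x axis, log scale) of the 47 helicase genes (y axis, by mean level) in the 3 sgUba6 libraries (filled circles) and the 3 sgCtrl libraries (open squares). *Ddx5* is highest at a mean of 263.9 FPKM with overlapping groups, and *Ddx60* is lowest at 2.96 FPKM with the sgUba6 libraries well to the right.

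Pairs of close relatives were set side by side, as the ratio of their FPKM within a library. *Ddx39b* and *Ddx39*, which encode near-identical export and splicing factors, had a ratio of 2.247, 1.256 and 1.845 in sgUba6 libraries, against 0.937, 1.204 and 0.841 in sgCtrl libraries. *Ddx39b* itself had 106.4, 107.3 and 93.5 FPKM in sgUba6 libraries, against 109.7, 102.2 and 103.9 FPKM in sgCtrl libraries, so the ratio followed *Ddx39*. In sgCtrl replicates 1 and 3 *Ddx39* was the higher of the pair, and in every sgUba6 library *Ddx39b* was.

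*Ddx21* and *Ddx50* are neighbours on chromosome 10 (62580251 to 62602281 and 62615895 to 62651218, both on the minus strand) and encode nucleolar proteins that are close relatives. Their ratio was 1.96, 2.12 and 2.08 in sgUba6 libraries, against 2.47, 2.57 and 2.48 in sgCtrl libraries. The ratios did not overlap. *Ddx50* had 40.1, 40.9 and 38.6 FPKM in sgUba6 libraries, against 35.3, 33.8 and 37.6 FPKM in sgCtrl libraries. *Ddx21* had 78.5, 86.6 and 80.6 FPKM in sgUba6 libraries, against 87.1, 87.1 and 93.1 FPKM in sgCtrl libraries (log2 fold change −0.12, adjusted p = 0.0864, limma), and it was called lower without sgUba6 replicate 2 (adjusted p = 0.0400). The rise of *Ddx50* was lost in 8 of 14 alternatives.

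The ratio of *Ddx5* to *Ddx17* was 1.52, 1.42 and 1.43 in sgUba6 libraries, against 1.26, 1.31 and 1.35 in sgCtrl libraries, without overlap. *Ddx19a* and *Ddx19b*, neighbours on chromosome 8 (110974996 to 110997800 and 111003188 to 111031751, both on the minus strand), had overlapping ratios. *Ddx19a* had 40.42, 37.88 and 39.45 FPKM in sgUba6 libraries, against 42.98, 43.15 and 42.92 FPKM in sgCtrl libraries. *Ddx19b* had 7.8, 8.0 and 8.2 FPKM in sgUba6 libraries, against 9.3, 8.6 and 9.4 FPKM in sgCtrl libraries. Neither gene overlapped between the groups, and both were slightly lower. Their ratios were 5.16, 4.74 and 4.82 in sgUba6 libraries, against 4.63, 5.02 and 4.56 in sgCtrl libraries. A stretch of 258 bases at 97.7% identity is shared by their transcripts, so reads there may be assigned to either gene.

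**Figure D4:**
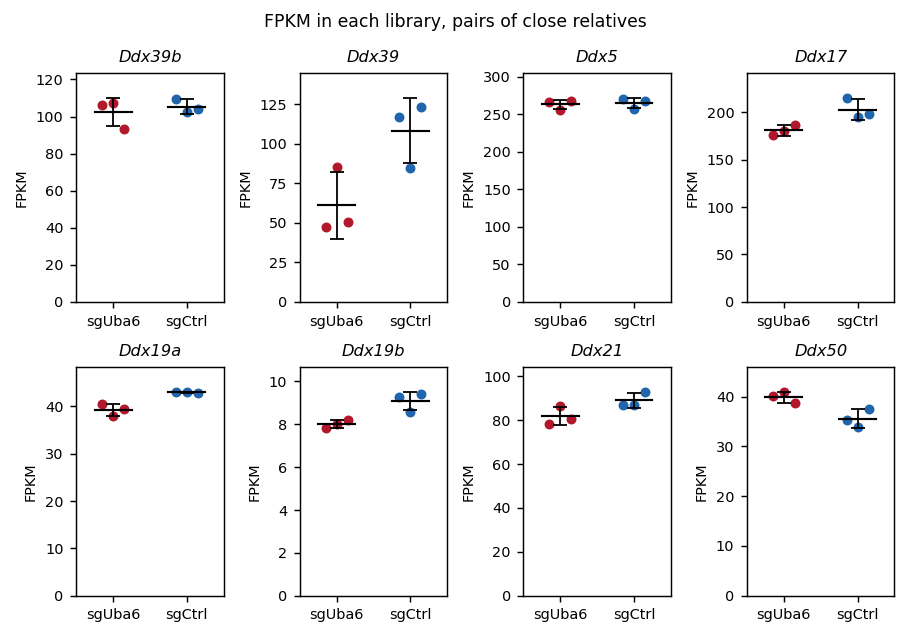
FPKM (y axis, from 0) in each library of sgUba6 and sgCtrl cells for 4 pairs of related helicase genes. Points are libraries, horizontal lines are means and bars are SD (n = 3 each). *Ddx17* lies lower and *Ddx50* higher in every sgUba6 library than in every sgCtrl library, while *Ddx39*, *Ddx39b* and *Ddx5* overlap between the groups.

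Helicases work with other proteins, and 56 genes of complexes that hold them or of proteins around them were examined as a list of partners. This list was chosen with earlier results of these data known, so its shares are a description only. The list holds cofactors, the inhibitor gene *Pdcd4*, and *Eif4a1*, *Eif4a2* and *Eif4a3*, whose products are themselves DEAD box proteins under another name. Of these, 22 (39.3%) were lower and 2 (3.57%) were higher, read against the 22.7% lower and 24.7% higher of all genes tested, and the median log2 fold change was −0.12. With quantile normalisation 5 partners were higher and 22 lower. The plot of partners shows the lower genes spread over all 6 sets of the list.

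Among nuclear pore genes around DDX19, *Nup155*, a pore scaffold gene whose human protein binds the DDX19 activator GLE1, had the largest change of the 56. It had 17.9, 18.6 and 19.0 FPKM in sgUba6 libraries, against 34.1, 35.0 and 36.6 FPKM in sgCtrl libraries. The mean of sgUba6 libraries was 0.525 of that of sgCtrl libraries (log2 fold change −0.91, SE 0.05, adjusted p = 2.2e-05, limma). *Gle1* itself had a log2 fold change of −0.02 and *Nup214* of −0.32 (adjusted p = 0.0548, limma). Of 11 genes of the TREX complex and its associated factors, 6 (54.5%) were lower, where 22.7% of all genes tested were lower and 24.7% higher. These factors couple DDX39B to mRNA export, and none of the 11 genes was higher by the limma test (0 also at an unadjusted p under 0.05). *Thoc1*, a core subunit, had 7.44, 7.99 and 8.66 FPKM in sgUba6 libraries, against 11.1, 12.6 and 11.3 FPKM in sgCtrl libraries.

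G-patch proteins bind DEAH box helicases and switch on their activity. Of 16, 7 (43.8%) were lower, where 22.7% of all genes tested were lower and 24.7% higher. None of the 16 was higher by the limma test (0 also at an unadjusted p under 0.05). *Nkrf*, a nucleolar partner of DHX15, had 4.15, 3.61 and 3.08 FPKM in sgUba6 libraries, against 6.56, 7.34 and 7.26 FPKM in sgCtrl libraries (log2 fold change −0.88, adjusted p = 0.000693, limma). *Gpatch4*, also nucleolar, had 7.66, 8.21 and 7.25 FPKM in sgUba6 libraries, against 14.06, 12.57 and 12.30 FPKM in sgCtrl libraries. It was lower at a log2 fold change of −0.71, again without overlap. The spliceosomal activators *Gpkow* and *Tfip11*, partners of DHX16 and DHX15 in human, were lower by less, with means of 14.9 FPKM and 17.4 FPKM in sgUba6 libraries, against 17.5 FPKM and 19.96 FPKM in sgCtrl libraries.

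The exon junction complex and the cap-binding complex each contain a DEAD box protein that carries another kind of name, eIF4A3 and eIF4A1. *Eif4a3* had 73.4, 79.6 and 72.3 FPKM in sgUba6 libraries, against 96.0, 95.6 and 101.9 FPKM in sgCtrl libraries (log2 fold change −0.38, adjusted p = 0.000961, limma). *Eif4a1* had 421.8, 459.2 and 404.1 FPKM in sgUba6 libraries, against 530.8, 481.4 and 523.7 FPKM in sgCtrl libraries (log2 fold change −0.26, adjusted p = 0.011, limma). Both were lower without overlap, while *Eif4a2*, its close relative, overlapped between the groups (log2 fold change 0.07). In the exon junction complex and its decay factors 3 of 8 genes (37.5%) were lower, against 22.7% of all genes tested. None of the 8 was higher by the limma test (1 at an unadjusted p under 0.05), against 24.7%. *Rbm8a*, which clamps eIF4A3 on RNA, was at a log2 fold change of −0.62. *Rbm8a* had 18.5, 18.5 and 16.7 FPKM in sgUba6 libraries, against 24.7, 31.4 and 27.6 FPKM in sgCtrl libraries. In the cap-binding complex 2 of 8 genes (25%) were lower and 1 (12.5%) was higher, against 22.7% and 24.7% of all genes tested. The median log2 fold change of the 8 was −0.02, and *Eif4g1*, *Eif4g3*, *Eif4b*, *Eif4h* and *Eif4a2* did not pass. *Eif4e*, the cap-binding subunit, was lower by a log2 fold change of −0.40. *Pdcd4*, an inhibitor that binds eIF4A, was higher, with 30.7, 29.2 and 28.9 FPKM in sgUba6 libraries, against 20.02, 19.64 and 17.31 FPKM in sgCtrl libraries (log2 fold change 0.63, SE 0.06, adjusted p = 0.000333, limma).

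Of 10 partners of DDX6, 3 (30%) were lower, 1 (10%) was higher and 6 did not pass. Over all genes tested, 22.7% were lower and 24.7% higher. The decapping genes *Dcp1a* and *Dcp2* fell by 0.48 and by 0.31 on the log2 scale, while *Ddx6* itself was higher. *Dcp1b*, *Edc3*, *Edc4*, *Patl1*, *Cnot1* and *Eif4enif1* did not pass, with log2 fold changes between −0.08 and 0.24. *Dcp1a* had 7.11, 7.14 and 7.23 FPKM in sgUba6 libraries, against 9.94, 10.3 and 10.2 FPKM in sgCtrl libraries. The related mRNP genes *Lsm14a* and *Lsm14b* went opposite ways, with *Lsm14a* at 68.4 ± 1.73 FPKM in sgUba6 libraries and 78.4 ± 1.45 FPKM in sgCtrl libraries, and *Lsm14b* at 32.2 ± 0.282 FPKM in sgUba6 libraries and 28.2 ± 0.725 FPKM in sgCtrl libraries (SD, n = 3 each).

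**Figure D5:**
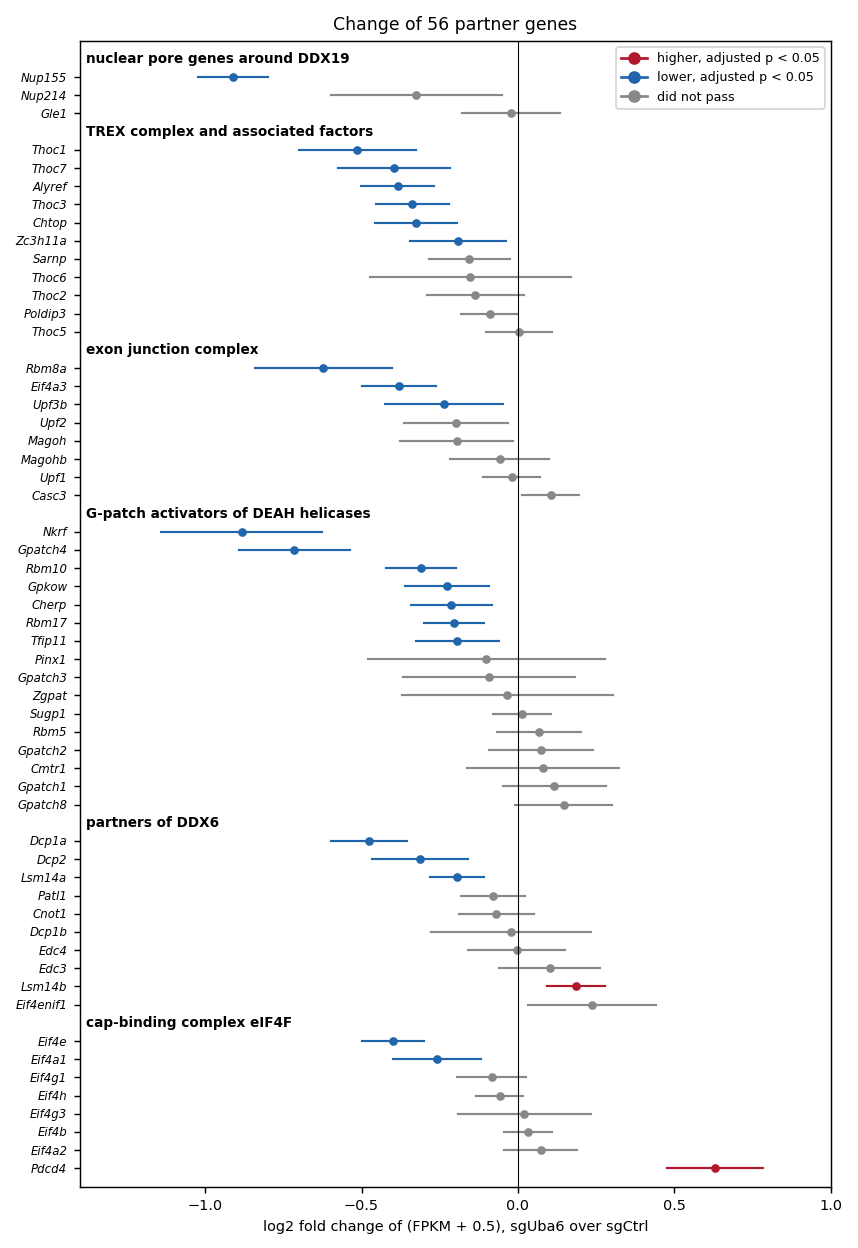
Log2 fold change of (FPKM + 0.5), sgUba6 over sgCtrl (x axis), for 56 partner genes of the helicases (y axis, by set). Points are estimates from 3 libraries a group and lines are 95% confidence intervals from limma, not adjusted for the number of genes. *Nup155* is lowest at −0.91, and *Pdcd4* and *Lsm14b* are the higher genes that passed the test.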

How the data were processed

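RNA-seq values of 6 libraries of 4T1 cells were used, 3 sgUba6 and 3 sgCtrl. The deposited values are FPKM per gene, which the authors computed after trimming and alignment to GRCm38. The study's methods name Cutadapt, HISAT2, StringTie and Cuffdiff with a directional kit, whereas the submitters' processing notes name CASAVA 1.8, Trimmomatic, HISAT2 and RSEM with a TruSeq kit, and the sources used here leave unsaid which of these made the table. The table also holds the authors' fold changes, p-values and q-values, which were not used. Depth is unknown and counts were not used here, so no interval for counting error is given.

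The 12190 of 19255 genes that reached 0.5 FPKM in 3 or more of the 6 libraries were compared on log2(FPKM + 0.5) in R 4.3.3, using lmFit and eBayes (trend on) of limma 3.58.1. Adjustment was by Benjamini-Hochberg over all 12190, and the threshold was 0.05. The scale understates changes of low genes. The method was tested on simulated data. Alternatives were an added constant of 0.1 or 1 FPKM, no filter or one of 1 FPKM, median-of-ratios scaling, quantile normalisation, no trend, a replicate block and leaving out each library. Coordinates and overlaps came from GENCODE M21, shared sequence from blastn 2.17.0 (at least 200 bases at 95% identity), and promoters from RefSeq. Figures were drawn with matplotlib 3.10.9. Genes named with values were those called with a log2 change of at least 0.5, the largest change of each role, the 5 most abundant, pairs of close relatives and the 6 called partners with the largest change; others with values were chosen after their values were seen. The members, roles and lists were chosen with earlier results of these data known.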

Additional observations from a re-analysis of the deposited data

How the results depend on the processing

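Of the 28 called helicase genes, 18 kept their call and direction under all 14 alternatives, and 17 of the 19 that did not pass were never called. No named value changed sign in a called result. The higher helicase genes numbered 8 in the main comparison and 5 with the replicate block. Leaving out each library in turn gave 5 to 6 higher and 13 to 17 lower helicase genes, against 8 and 20. Partner genes called higher numbered 5 with quantile normalisation, against 2. The other scalings and filters gave 6 to 8 higher and 16 to 20 lower helicase genes. The causes were not tested. Replicate numbers did not pair the libraries: same-numbered libraries had correlations of deviations of 0.02, −0.06 and −0.02, and the replicate block also gave 14 lower helicase genes, without *Ddx39* (adjusted p = 0.0693, limma). The median log2 fold change of all genes tested was −0.01 with median-of-ratios scaling and −0.02 with quantile normalisation, against 0.01. Apart from *Ddx39*, the calls that were lost under some alternative were of changes of 0.13 to 0.23 in size on the log2 scale. With 3 libraries a group and unknown depth, calls of that size are the least certain.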
